A study of Mus musculus with 11 samples.

Results

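The first stretch of a transcribed gene, 1 to 5 kb downstream of its start, was examined as a target of HIV integration in mouse embryonic fibroblasts (MEF). Members are integration sites, each a distinct combination of chromosome, position and strand. A site was taken when it lay in a protein-coding gene of at least 10 kb at 1000 to 5000 bases downstream of the start. It was left out within 1 kb of any other protein-coding start or within 5 kb of a replication-dependent histone gene of the clusters Hist1 to Hist4. This rule, which uses position only, gave 70421 of the 831994 sites of the 11 libraries, or 8.46%, in a zone that makes up 2.08% of the mm9 genome. The zone covers 53.2 Mb in 13418 genes, of which 10706 (79.8%) held at least 1 site.

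All libraries came from LEDGF-/- MEF cells of strain C57BL/6, cells that lack the chromatin protein through which HIV integrase is normally tethered. In each library another protein, fused to LEDGF-IBD, the integrase-binding domain of LEDGF, was expressed from an electroporated plasmid. HIV was added after 24 hours and cells grew for 3 more days before junctions of viral and genomic DNA were amplified and sequenced. The fused proteins were NELFA, NELFB, NELFCD and NELFE (called NELF here, 4 libraries), INIP, INTS3, NABP1 and NABP2 (called SOSS, 4), INTS9 and INTS11 (2), and SPT5 (1). The question was where these proteins meet chromatin, and no library without a fused protein was analysed here. There was 1 library per protein. Subunits of a complex therefore served as its replicates, and p-values measure how far they spread, which may be partly technical. Libraries held 18753 to 197069 sites and 1163 to 19696 sites in the zone. All 4 NELF libraries were run on a flow cell with no other library, so a comparison of NELF with any other protein is also a comparison of flow cells, and these cannot be told apart. SPT5 was alone on its flow cell too.

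As background, RNA polymerase II often stops shortly after it starts. NELF and DSIF, whose large subunit is SPT5, hold it there, and the kinase P-TEFb releases it, after which NELF leaves while SPT5 travels on with the polymerase. The zone is thus the stretch that a released polymerase crosses early in elongation. Integrator binds polymerase II near starts and cleaves young transcripts through INTS9 and INTS11, and INTS3 also joins INIP and NABP1 or NABP2 in SOSS complexes that bind single-stranded DNA.

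To show where single integrations lay, a 200-base bin of each of the 5 leading genes is printed below, the one with the most sites after each library was scaled to sites per 100000. These genes had the most zone sites per 100000 sites of a library, averaged over the 11 libraries, and bins that touch an untranslated region were passed over, so other bins of a gene can hold as many sites or more. Sequences are from the mm9 genome and run 5′ to 3′ along the gene. Capitals mark the genomic base next to the viral end of at least 1 integration in any library. The Brd2 bin, chr17:34254263-34254462 on the minus strand, lies in an intron 4800 to 5000 bases from the start and took 12 sites from 7 libraries. The Myo1c bin, chr11:75467006-75467205 on the plus strand, is intronic, 3000 to 3200 bases from the start, and took 12 sites from 7 libraries. The Flna bin, chrX:71491360-71491559 on the minus strand, spans coding exon and intron 3600 to 3800 bases from the start and took 8 sites from 5 libraries. The Gtf2a1 bin, chr12:92827128-92827327 on the minus strand, is intronic, 1600 to 1800 bases from the start, and took 10 sites from 5 libraries. The 2310014H01Rik bin, chr17:36005138-36005337 on the plus strand, spans coding exon and intron 2600 to 2800 bases from the start and took 6 sites from 5 libraries.
Brd2: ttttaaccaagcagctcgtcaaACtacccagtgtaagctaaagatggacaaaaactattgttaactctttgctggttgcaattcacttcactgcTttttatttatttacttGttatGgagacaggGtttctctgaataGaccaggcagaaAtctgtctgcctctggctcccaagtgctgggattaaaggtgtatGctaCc
Myo1c: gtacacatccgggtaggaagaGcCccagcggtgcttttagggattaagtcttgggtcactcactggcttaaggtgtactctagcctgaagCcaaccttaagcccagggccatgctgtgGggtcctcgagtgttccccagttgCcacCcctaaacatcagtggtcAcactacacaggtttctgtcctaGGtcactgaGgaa
Flna: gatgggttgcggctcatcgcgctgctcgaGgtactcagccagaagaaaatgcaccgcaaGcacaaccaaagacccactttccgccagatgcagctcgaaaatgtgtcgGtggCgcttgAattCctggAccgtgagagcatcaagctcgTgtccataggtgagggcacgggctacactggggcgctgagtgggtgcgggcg
Gtf2a1: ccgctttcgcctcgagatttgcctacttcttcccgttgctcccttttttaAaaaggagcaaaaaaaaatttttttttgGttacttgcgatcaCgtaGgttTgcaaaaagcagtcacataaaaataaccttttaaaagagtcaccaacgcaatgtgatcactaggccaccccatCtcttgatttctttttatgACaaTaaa
2310014H01Rik: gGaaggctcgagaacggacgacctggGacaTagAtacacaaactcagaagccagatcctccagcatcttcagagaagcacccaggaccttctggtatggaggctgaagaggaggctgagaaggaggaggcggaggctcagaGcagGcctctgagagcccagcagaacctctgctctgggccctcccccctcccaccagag

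In these bins the sites were scattered over single bases. The 12 Brd2 sites fell on 10 bases, the 12 Myo1c sites on 10, the 10 Gtf2a1 sites on 9, and each of the 8 Flna and 6 2310014H01Rik sites had a base of its own. Over the whole zone 68837 positions occurred in 1 library, 729 in 2, 38 in 3 and 3 in 4. Between 1.91% (INTS9) and 3.72% (NELFB) of a library's zone sites shared their exact position with another library. The bins also differed in composition: GC content was 37.5% in the Gtf2a1 bin, 41% in Brd2, 54% in Myo1c, 59.5% in Flna and 60% in 2310014H01Rik.

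HIV integrase joins the viral ends to both DNA strands at points 5 bases apart, and its preferred target is a weak palindrome around them. The zone sites showed that palindrome. Counting from the base next to the viral end as position 1, G held 44.7% of all 70421 zone sites at position 1, T 42.9% at position 2, A 41.7% at position 4 and C 42.9% at position 5. Just outside, T held 43.4% at position -3 and A 43.0% at position 8, with no position 0 in the count. The zone's own bases, over both strands, are 27.8% A or T each and 22.2% C or G each. The word GTNAC (a palindrome, so both strands are read at once) stood at positions 1 to 5 of 2.53% (NELFB) to 3.62% (INTS3) of a library's zone sites, and at 0.282% of all zone positions. In NELF it was 2.53% to 2.84%, in SPT5 2.72%, in SOSS 3.08% to 3.62% and in INTS9 and INTS11 2.98% and 2.79%. Entries on the minus strand had their axis of symmetry 1 base off that of plus-strand entries, and they were shifted by that base for this count and for the capitals only.

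The zone was above uniform density in every library, by very different amounts. Density is given as fold over the library's sites spread evenly on chromosomes 1 to 19 and X, with exact binomial intervals at 95% that cover counting error only. Among NELF libraries it was 3.21 (3.07 to 3.35) for NELFA, 3.00 for NELFB, 2.72 for NELFCD and 2.98 for NELFE. SPT5 had 4.72 (4.62 to 4.82). Among SOSS libraries NABP2 had 6.06 (5.96 to 6.17), NABP1 5.02, INTS3 4.32 and INIP 2.34 (2.21 to 2.47), so INIP lay below every NELF library and the other 3 above. INTS9 had 2.99 and INTS11 2.79, inside the NELF range.

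NELF averaged 2.98 ± 0.202 and SOSS 4.44 ± 1.57 (SD, n = 4 each), a difference that the spread did not separate (two-sided exact permutation test, p = 0.143, adjusted p = 0.167 over 7 measures). The 70 splits of 8 libraries into 4 and 4 allow no p below 0.0286. INIP decided that call: without it the difference was -2.16 and passed (adjusted p = 0.0333). Proteins sequenced on more than 1 flow cell differed between them by more than counting error, with intervals that did not overlap. Density was 3.02 (2.97 to 3.08) and 2.73 (2.58 to 2.88) for INTS9, 4.64 (4.54 to 4.73) and 5.34 (5.25 to 5.43) for NABP1, and 5.27 (5.03 to 5.51) and 6.23 (6.11 to 6.35) for NABP2. INIP and INTS3 shared a flow cell with part of NABP2.

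**Figure D1:**
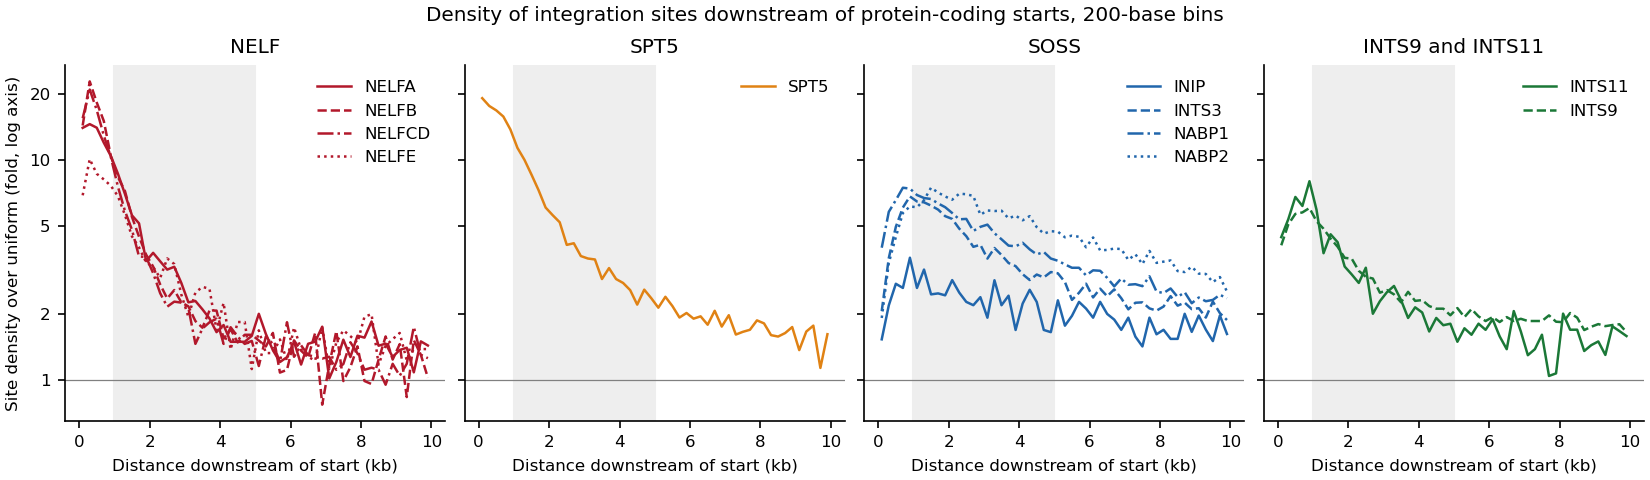
Density of integration sites (fold over uniform, log axis) against distance downstream of the start in 200-base bins, 1 panel per family and 1 line per library, with the zone shaded. NELF and SPT5 lines fall steeply through the zone from a maximum near the start, SOSS lines start lower and fall slowly, and the INIP line stays between 3.18 and 1.65 inside the zone.

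Density fell across the zone in every family, steeply in NELF and SPT5 and slowly in SOSS. In NELF it went from 7.88 ± 0.819 in the bin at 1000 to 1200 bases to 1.46 ± 0.227 at 4800 to 5000 bases (n = 4). In SOSS it went from 5.54 ± 1.97 to 3.27 ± 1.28 over the same span. SPT5 began highest of all libraries, at 11.4, and ended at 2.36, while INTS11 went from 5.95 to 1.80 and INTS9 from 5.28 to 1.97. Over all bins from 5 kb upstream to 10 kb downstream, the highest lay at 200 to 400 bases in NELFB (22.8), NELFCD (20.9) and NELFE (10.1), at 0 to 200 in SPT5 (19.1), and in NELFA between 400 and 200 bases upstream (16.9). In NABP2 it lay inside the zone, at 1400 to 1600 bases (7.50), in INIP, INTS3, INTS9 and INTS11 at 800 to 1000, and in NABP1 at 600 to 800.

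No single bin passed between NELF and SOSS: 0 of 20 bins, 0% (exact permutation tests, smallest adjusted p = 0.127). At an unadjusted p of 0.0286, 4 of the 20 bins had families that did not overlap, all from 3200 bases on and all higher in SOSS. Without INIP 18 of 20 bins passed, so this count too rests on that library. Each library was next divided by its own zone mean, which removes its level and leaves the shape. NELF then ran from 2.65 ± 0.234 in the bin nearest the start to 0.491 ± 0.0799 in the farthest, and SOSS from 1.25 ± 0.228 to 0.730 ± 0.0366. Families did not overlap in 11 of 20 bins on this scale, 3 near the start with NELF higher and 8 from 2800 bases on with SOSS higher, but the adjusted p of 0.0519 left 0 of 20 past the threshold (0%). All libraries share the same zone mean on this scale, so a surplus near the start brings a deficit farther out. The near and far bins are therefore not separate results.

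**Figure D2:**
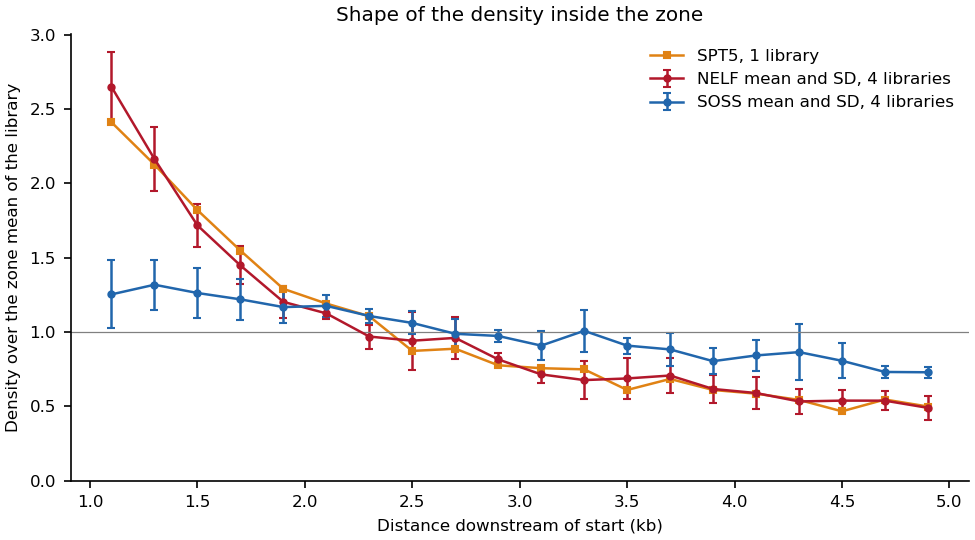
Density in each 200-base bin divided by the library's zone mean, against distance from the start, with means and SD of 4 NELF and 4 SOSS libraries and the single SPT5 library. The SPT5 line falls from its highest value at the inner edge as the NELF mean does, while SOSS stays between 1.32 and 0.730.

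The summary measures of shape did separate NELF from SOSS, at the limit of what 4 against 4 allows. The mean distance of zone sites from the start was 2395 bases in NELFA, 2401 in NELFB, 2444 in NELFCD and 2531 in NELFE. It was 2690 in INTS3, 2768 in NABP1, 2873 in NABP2 and 2886 in INIP. Every SOSS library therefore lay beyond every NELF library, and all lay short of the 3006 bases of uniform positions. The difference of -362 bases between the family means (2443 ± 62.9 and 2804 ± 92.8) had an exact permutation p of 0.0286 and an adjusted p of 0.05, which just reached the threshold of 0.05. SPT5 had 2439 bases, among NELF libraries, and INTS11 with 2621 and INTS9 with 2669 lay between the families. NELF libraries had 40.4% to 48.1% of their zone sites in the kilobase from 1 to 2 kb and 12.3% to 14.3% in that from 4 to 5 kb, SPT5 45.3% and 13.3%, and SOSS libraries 27.8% to 35.1% and 17.4% to 22.3%.

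Set against the kilobase nearest the start, the zone was weak in NELF and strong in SOSS. Density in the zone over density at 0 to 1 kb of the same starts was 0.247 in NELFA, 0.186 in NELFB, 0.178 in NELFCD and 0.359 in NELFE. It was 0.918 in INIP, 0.911 in INTS3, 0.800 in NABP1 and 1.39 in NABP2, and NABP2 had more sites per base in the zone (6.06) than at 0 to 1 kb (4.37). On the log2 scale the means were -2.10 ± 0.466 and -0.03 ± 0.345 (difference -2.08, exact permutation p = 0.0286, adjusted p = 0.05). SPT5 had a ratio of 0.284, inside the NELF range, although its zone density was above that of every NELF library. INTS11 had 0.450 and INTS9 0.558.

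Set against 5 to 10 kb inside the same genes, the order turned. The ratio was 2.24, 2.35, 2.11 and 2.02 in NELFA, NELFB, NELFCD and NELFE, and 1.28, 1.87, 1.83 and 1.66 in INIP, INTS3, NABP1 and NABP2. NELF was higher by 0.41 on the log2 scale (exact permutation p = 0.0286, adjusted p = 0.05). SPT5 had the highest ratio of the 11 libraries, 2.63. In absolute terms density at 5 to 10 kb was 1.28 to 1.48 in NELF, 1.79 in SPT5 and 1.83 to 3.64 in SOSS, so all of these stood above uniform there.

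The zone was also compared with 1 to 5 kb upstream of the same starts, outside protein-coding genes. Downstream over upstream density was 1.58 in NELFA, 1.47 in NELFB, 1.46 in NELFCD and 1.65 in NELFE, against 2.72 in SPT5, 3.11 in NABP2, 2.51 in NABP1, 1.73 in INTS3 and 1.59 in INIP. The INIP library fell among the NELF values, and the families did not pass (difference -0.48 on the log2 scale, exact permutation p = 0.0571, adjusted p = 0.08). They passed without INIP (-0.63, adjusted p = 0.0333) and with sites near other starts of the same gene left out (-0.71, adjusted p = 0.05). INTS11 had 1.75 and INTS9 1.64.

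**Figure D3:**
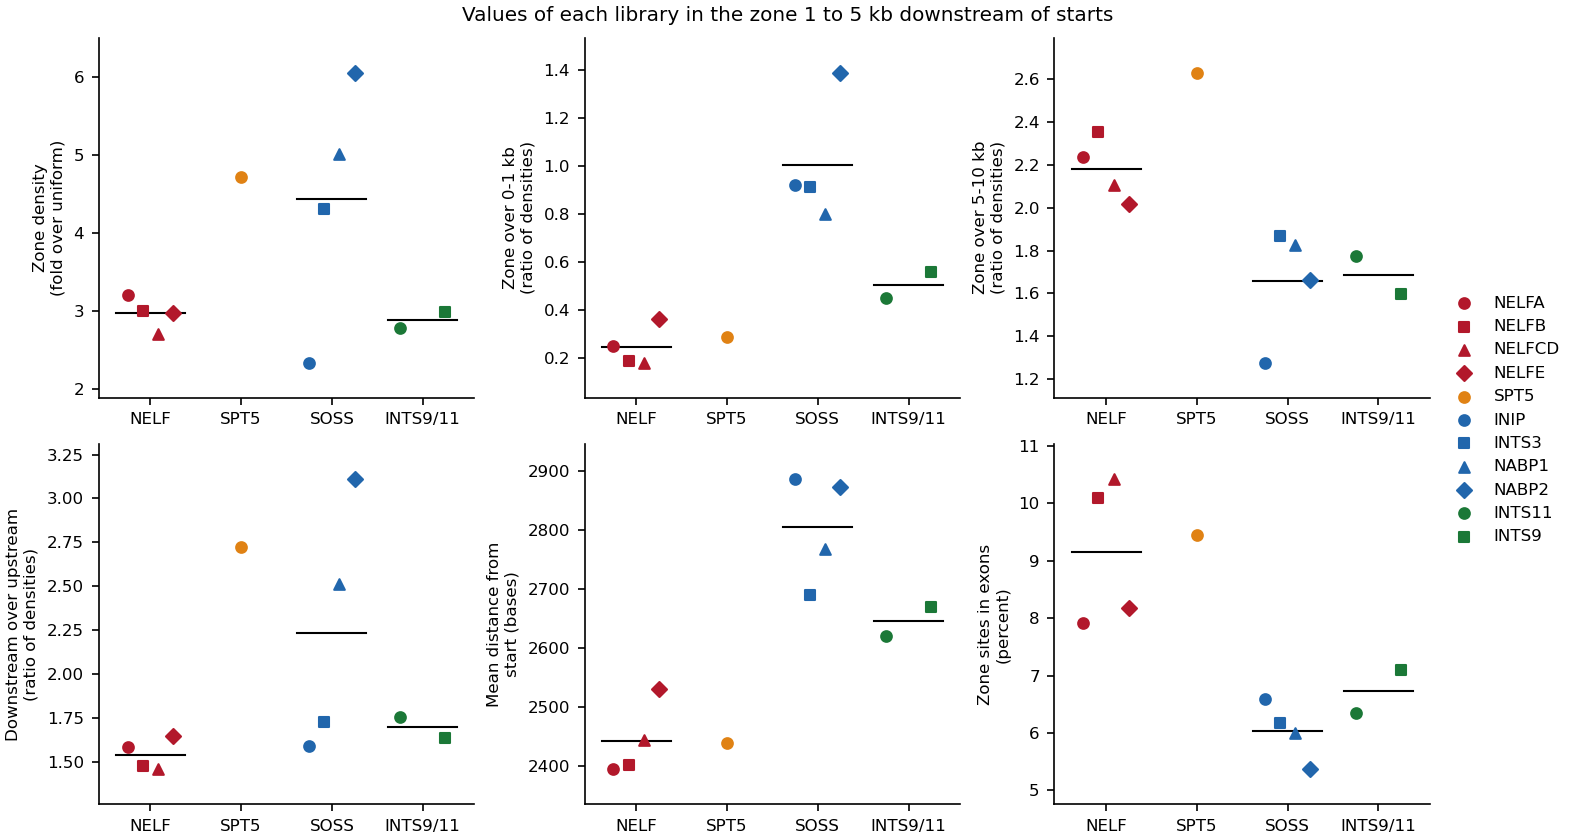
The 6 measures of the zone for each of the 11 libraries, 1 symbol per library and lines at family means. NELF and SOSS do not overlap in zone over 0 to 1 kb, zone over 5 to 10 kb, mean distance and exon share, and overlap in zone density and downstream over upstream, where INIP lies with NELF.

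Many genes have further transcript starts inside the zone, and the libraries differed in how many sites lay near them. Bases within 1 kb of another annotated start of the same gene make up 9.98% of the zone. They held 20.4% to 28.6% of the zone sites of NELF libraries, 23.6% of SPT5, 15.8% and 17.6% of INTS9 and INTS11, and 11.2% to 14.7% of SOSS. With such sites and bases left out, NELF density was 2.46 ± 0.240 and SOSS density 4.29 ± 1.53 (exact permutation p = 0.114, adjusted p = 0.16). Mean distance (-331 bases), zone over 0 to 1 kb (-2.23 on the log2 scale) and zone over 5 to 10 kb (0.32) kept adjusted p-values of 0.05.

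The families differed in the share of zone sites in exons only while sites near those starts were kept. Exons make up 6.40% of the bases of the whole zone, and their share of the bases away from other starts was not computed. The share was 7.91% in NELFA, 10.1% in NELFB, 10.4% in NELFCD and 8.17% in NELFE, and 6.60%, 6.18%, 6.00% and 5.37% in INIP, INTS3, NABP1 and NABP2, with no overlap (exact permutation p = 0.0286, adjusted p = 0.05). Without sites near other starts the shares were 4.45% ± 0.506 and 4.05% ± 0.665 and overlapped (exact permutation p = 0.343, adjusted p = 0.4). SPT5 had 9.45%. Mean GC content in 201 bases around zone sites moved with the families too, at 46.7% to 47.9% in NELF, 47.4% in SPT5, 44.5% to 44.9% in SOSS and 45.2% and 45.3% in INTS9 and INTS11, beside 44.3% for the zone. The part of GC content in the differences was not tested. Viral orientation was balanced, with 49.2% to 51.8% of zone sites on the gene's strand in NELF and 50.1% to 52.8% in SOSS (exact permutation p = 0.714).

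The 4 measures that passed did so with no margin. Leaving out NELFA, NELFB or NELFCD raised the adjusted p of mean distance, both zone ratios and exon share to between 0.0667 and 0.1, and leaving out NELFE or any SOSS library did not. Families that do not overlap stay apart when a library is left out. This rise therefore comes from the uneven splits and the joint adjustment, and does not show dependence on these libraries. The differences stayed about as large without these 3, at -2.10 to -1.95 in zone over 0 to 1 kb against -2.08. With INTS9 and INTS11 added to SOSS the 4 measures had adjusted p-values of 0.0111 to 0.0167, with -309 bases in mean distance, -1.75 in zone over 0 to 1 kb, 0.40 in zone over 5 to 10 kb and 2.88 points in exon share. Placing SPT5 with SOSS gave adjusted p-values of 0.1 for mean distance, zone over 0 to 1 kb and exon share and of 0.25 for zone over 5 to 10 kb.

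Among genes, the zone sites were spread thinly. The median gene with a zone held 3 sites over the 11 libraries together, 2712 genes held none, and 13 genes had a site in every library. Thinned to 1163 zone sites, libraries hit between 962 genes (NELFB) and 1074 (INTS9), and the 100 leading genes of a library held 16.3% (INTS9) to 23.0% (NELFB) of its sites. Genes are compared as zone sites per 100000 sites of the library, and 1 site is worth 5.33 in the smallest library, NELFE. A count of 0 allows up to 3 sites, which is 9.96 per 100000 in NELFA, 12.04 in INIP and 1.52 in INTS9. Of all genes with a zone, 6739 (50.2%) had a higher SOSS than NELF mean and 2729 (20.3%) a higher NELF mean. SOSS libraries together held 40686 zone sites and NELF libraries 7439, so a gene with few sites could more easily be missed in NELF. These counts are therefore not a measure of preference.

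The leading gene was Brd2 (chr17:34248965-34259262, minus strand), which encodes a bromodomain protein that binds acetylated histones. It had 39.9, 61.4, 46.04 and 21.3 zone sites per 100000 in NELFA, NELFB, NELFCD and NELFE. SOSS libraries had 0 in INIP, 18.7 in INTS3, 22.3 in NABP1 and 29.5 in NABP2, and INTS11 had 26.5 and INTS9 5.07. SPT5 had 4.88 (95% exact Poisson interval 1.33 to 12.5), below every NELF library. Of the 163 Brd2 sites 93.9% lay within 1 kb of another start of Brd2, so most of its zone sites surrounded starts annotated further downstream. The SOSS minus NELF difference was -1.90 on the log2 scale with a pseudocount of 1 (limma adjusted p = 0.195), and -0.75 without INIP.

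The motor protein gene Myo1c (chr11:75464006-75488134) came next. It had 36.5, 35.5, 29.1 and 10.7 in the 4 NELF libraries in the order above and 31.7 in SPT5, against 0, 12.5, 9.02 and 9.07 in INIP, INTS3, NABP1 and NABP2. Only NELFE overlapped the SOSS range, and the difference of -2.12 had a limma adjusted p of 0.0562. It was -1.25 without INIP, and it passed at -1.83 with sites near other starts left out (limma adjusted p = 0.0449). Flna, the gene of the actin crosslinker filamin A, had 23.3, 22.6, 17.0 and 37.3 in NELF, 18.3 in SPT5 and 4.01, 7.27, 10.1 and 10.2 in SOSS. These families did not overlap, yet the difference of -1.56 did not pass (limma adjusted p = 0.182). It was -1.31 without INIP and passed then (limma adjusted p = 0.0417). Near other starts lay 48.6% of Myo1c sites and 57.0% of Flna sites.

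Gtf2a1, which encodes a subunit of the general factor TFIIA, was among the 5 leaders of NELF and of INTS9 with INTS11. It averaged 18.4 ± 8.24 in NELF, 8.51 ± 3.61 in SOSS and 9.19 in INTS9 and INTS11, with 9.75 in SPT5. The other leading genes had means over the 11 libraries of 9.14 to 11.9. They were 2310014H01Rik, Ehd1 (endocytic recycling), Rassf1 (a Ras-association protein), Plec (the cytolinker plectin), Ptbp1 (a splicing repressor), Mknk2 (a kinase of the translation factor eIF4E), Ddr1 (a collagen receptor kinase) and Sdc4 (a cell surface proteoglycan). Near other starts of the gene lay 100% of Ddr1 sites and 80.0% of Plec sites, but 14.8% of Mknk2 sites.

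Leaders differed between families. In SPT5 they were Midn (36.6, interval 24.7 to 52.2), Myo1c, Rcc1 (26.8), which encodes the exchange factor of the GTPase Ran, Tpm1 (25.6), a tropomyosin gene, and Ppp1r10 (24.4), which encodes a nuclear targeting subunit of protein phosphatase 1. In NELF the same genes averaged 10.3 ± 6.35 (Midn), 2.97 ± 2.21 (Rcc1), 3.96 ± 3.11 (Tpm1) and 11.03 ± 2.76 (Ppp1r10). In SOSS the leaders after Brd2 were Ptbp1 (15.4 ± 15.9), Srsf3 (13.3 ± 7.20), Polr2a (13.2 ± 6.41), which encodes the largest subunit of polymerase II, and Dot1l (13.1 ± 11.4), which encodes a histone H3 methyltransferase. Their NELF means were 2.45 ± 3.10, 1.41 ± 1.67, 4.41 ± 1.93 and 1.44 ± 1.70. INTS9 and INTS11 added Dgcr8 (mean 9.60), which encodes a microRNA processing factor and had 17.7 in INTS11 and 1.52 in INTS9, and the collagen gene Col4a1 (6.70). As these genes were named for their height in a family, the values are a description.

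**Figure D4:**
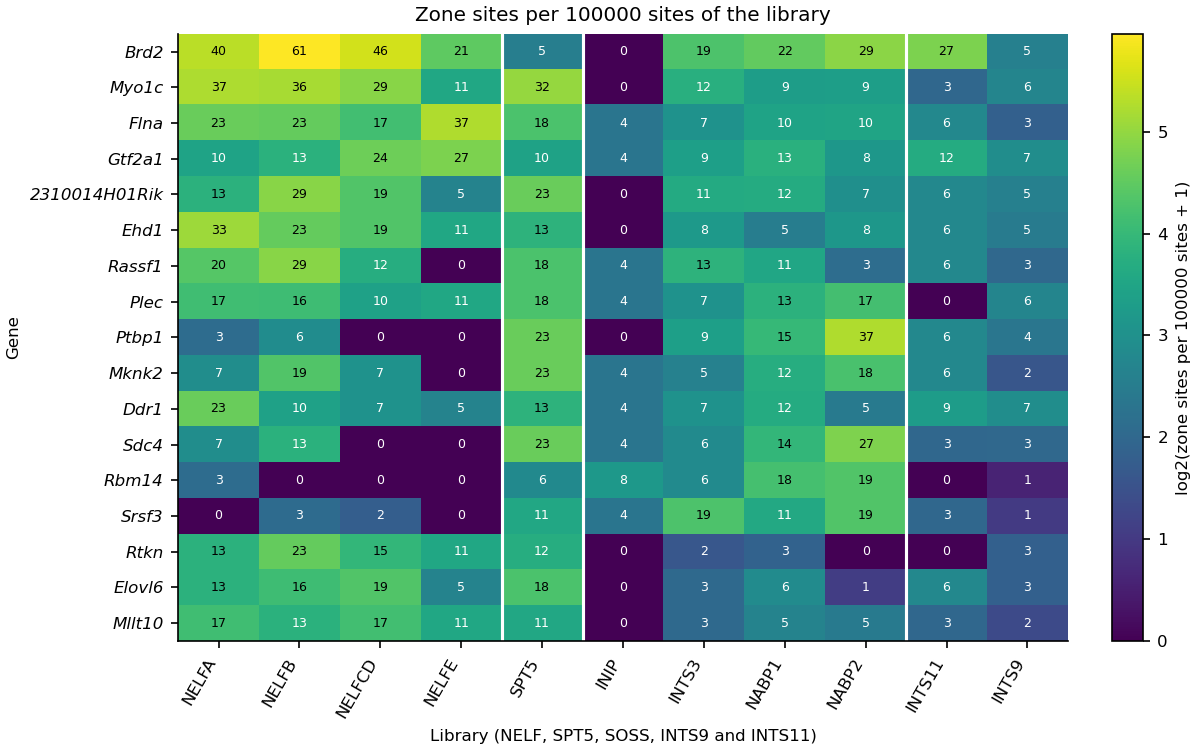
Zone sites per 100000 sites of each library (printed in each cell, colour on a log2 scale) for the 12 leading genes and for those that passed between SOSS and NELF, with libraries grouped by family. Brd2 is high in NELF and low in SPT5 and INIP, and Rbm14 and Srsf3 are near 0 in NELF.

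The 76 genes with a mean of at least 5 per 100000 were tested with limma. Against NELF, 2 genes were higher in SOSS (2.63%) and 4 lower (5.26%), 6 in all (7.89%), and 16 of 76 (21.1%) had families that did not overlap. The median difference over the 76 genes was -0.51 on the log2 scale, with 24 higher and 52 lower in SOSS, and it was -0.09 without INIP. With the minimum lowered to 2 per 100000 the median over 740 genes was 0.48, and 17 genes were higher and 4 lower, so the balance of directions depends on which genes are tested. It depends on the scaling as well: per 10000 zone sites, which takes out the higher zone density of SOSS, the median moved to -0.98 and 1 gene was higher and 16 lower.

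Rbm14 and Srsf3 were higher in SOSS. Rbm14 (chr19:4784299-4811634, minus strand), the gene of an RNA-binding coactivator, had 3.32 in NELFA and 0 in NELFB, NELFCD and NELFE. It had 8.03, 6.23, 17.5 and 19.3 in INIP, INTS3, NABP1 and NABP2, 6.09 in SPT5, 0 in INTS11 and 0.507 in INTS9. The difference was 3.12 ± 0.897 (SE, limma adjusted p = 0.0245), all 4 SOSS libraries lay above all 4 of NELF, and 1.54% of its 65 sites lay near another start. Srsf3 (chr17:29169618-29180311), which encodes a splicing factor of the SR family, had 0, 3.23, 2.42 and 0 in NELF and 4.01, 18.7, 11.1 and 19.3 in SOSS. The difference was 2.68 ± 0.872 (limma adjusted p = 0.0373), with 10.97 in SPT5 and 32.4% of sites near other starts. Both genes averaged under the minimum of 5 in NELF (0.830 and 1.41) and reached it through the other libraries, with SOSS means of 12.8 and 13.3, so the minimum itself favoured a higher SOSS value.

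Rtkn, Elovl6, Ehd1 and Mllt10 were lower in SOSS. Of these all but Ehd1 averaged under 5 in SOSS and reached the minimum through NELF and SPT5, which favoured a lower SOSS value in the same way. Rtkn (chr6:83085457-83102573) had 13.3, 22.6, 14.5 and 10.7 in NELF and 0, 2.08, 2.65 and 0 in SOSS (-3.10 ± 0.872, limma adjusted p = 0.0245). SPT5 had 12.2, and 90.2% of Rtkn sites lay near other starts. Elovl6 (chr3:129235304-129341413), a fatty acid elongase gene with 0% of sites near other starts, had 13.3, 16.1, 19.4 and 5.33 in NELF and 0, 3.11, 6.37 and 1.13 in SOSS (-2.23 ± 0.701, limma adjusted p = 0.0373). Its families overlapped at NELFE, and SPT5 had 18.3.

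Mllt10 (chr2:17976898-18134017), which encodes a partner of the methyltransferase DOT1L, had 16.6, 12.9, 17.0 and 10.7 in NELF and 0, 3.11, 5.31 and 4.53 in SOSS (-2.12 ± 0.698, limma adjusted p = 0.0373), with 0% near other starts. Ehd1 (chr19:6273971-6300096) had 33.2, 22.6, 19.4 and 10.7 in NELF and 0, 8.31, 4.78 and 7.94 in SOSS (-2.16 ± 0.717, limma adjusted p = 0.0373), and without INIP the difference was -1.42 and still passed. Its sites gathered late in the zone, at a median of 3799 bases, and 58.9% lay near another start. With sites near other starts left out, limma tested 33 genes and 5 passed, Rbm14 (adjusted p = 0.00609) and Polr2a (0.0335) higher in SOSS and Elovl6 (0.0196), Mllt10 (0.0196) and Myo1c (0.0449) lower. Ehd1 did not pass (0.197), and Srsf3 and Rtkn fell below the minimum. With all sites Polr2a averaged 4.41 in NELF and 13.2 in SOSS, so the minimum again favoured a higher SOSS value. Without NELFA, NELFB or NELFCD in turn, limma called 0 genes, with 12 to 14 at an unadjusted p under 0.05.

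SPT5 minus NELF gave 0 calls of 76 in either direction (0%), with limma assuming that the lone SPT5 library varies like the others. At an unadjusted p under 0.05 there were 3 genes, and with voom weights, another limma weighting, 0 passed and 5 were nominal. A pseudocount of 5 gave 2 higher. This contrast shares the NELF libraries with the one above, so values stand side by side. The median difference was 0.81 on the log2 scale, 64 of 76 genes were higher in SPT5, and 12 were lower. Per 10000 zone sites the median was 0.36. Of the nominal genes Ptbp1 had 23.2 in SPT5 against 3.32, 6.46, 0 and 0 in NELF, Sdc4 23.2 against 6.64, 12.9, 0 and 0, and Rcc1 26.8 against 3.32, 3.23, 0 and 5.33. These genes were picked for this contrast, so their values are a description. SOSS reached 37.4 at Ptbp1 and 27.2 at Sdc4, both in NABP2.

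Gene lists describe zone sites by kind of gene. Values are fold over uniform density in the zones of the list's genes, beside 2.98 in NELF and 4.44 in SOSS for all zones. The lists were chosen with earlier results of these data known and hold leading genes such as Brd2, Myo1c, Flna, Plec and Ptbp1. High values in them were therefore partly given by the choice. RNA binding and splicing genes (21 with a zone) had 25.3 ± 15.2 in SOSS, from 6.16 in INIP to 42.5 in NABP2, 8.80 ± 3.00 in NELF, 35.2 in SPT5 and 7.37 in INTS9 and INTS11. SOSS means were higher than NELF means at 19 of 21 and lower at 1, beside 50.2% and 20.3% of all genes with a zone. Those shares count 2712 genes without any site, whereas all 21 listed genes held one. Both shares can therefore be higher in a list, so the counts are not a measure of preference for these genes. limma tested 3 of these genes, of which Srsf3 passed and Ptbp1 was higher at an unadjusted p under 0.05, beside 6 passing (7.89%) and 19 at that unadjusted p (25%) among all 76. Ptbp1 also passed without INIP (2.95, limma adjusted p = 0.0057). It averaged 2.45 in NELF and reached the minimum of 5 through other libraries, which favoured a higher SOSS value. Genes of polymerase II elongation control (23) had 17.1 ± 4.90 in SOSS, with all 4 libraries from 11.2 to 21.2, above the NELF range of 4.05 to 8.33. The NELF values rested on 9, 9, 6 and 4 sites and the INIP value on 10. The INIP interval (5.36 to 20.6) overlapped that of every NELF library, such as NELFA (3.81 to 15.8). A single member held 50% of the list's sites in NELFCD and in NELFE. SPT5 had 11.9. SOSS means were higher at 16 of the 23 and NELF means at 6, beside those same shares of all genes. All 23 held a site, so the same limit applies. Of the 2 tested, Polr2a and Ccnt1, the cyclin of P-TEFb, limma called 0, as it did at an unadjusted p under 0.05. Polr2a did pass with sites near other starts left out, though its NELF mean with all sites, 4.41, was also under the minimum. Polr2a had 13.5, 17.0 and 18.1 in INTS3, NABP1 and NABP2 and 4.01 in INIP, and 2.42 to 6.64 in NELF.

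Of the 9 lists, actin cytoskeleton genes had the densest zones in the NELF mean and in SPT5, though in NELFB chromatin regulator genes (31.0) exceeded them (26.4). The 29 genes had 28.0 ± 2.35 in NELF, 22.4 ± 9.86 in SOSS, 55.2 in SPT5 (interval 47.9 to 63.3) and 9.35 in INTS9 and INTS11. NELF means were higher at 11 of 29 genes and SOSS means at 17, beside 20.3% and 50.2% of all genes with a zone. Those shares include genes without a site, whereas 28 of the 29 held one, so the counts are not a measure of preference. Of 7 tested limma called 0, with 2 (Myo1c and Flna) lower in SOSS at an unadjusted p under 0.05, near the background of 25%. Matrix and adhesion genes (28) had 13.9 ± 4.87, 13.4 ± 5.10, 31.0 and 6.78. NELF means were higher at 12 of them and SOSS means at 14, beside those same shares of all genes. limma called 0 of 1 tested, 0 also at an unadjusted p under 0.05. Sparc, which encodes a secreted matrix protein, led this list with 11.8 ± 6.49 in NELF, 5.93 ± 2.11 in SOSS and 12.2 in SPT5.

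Chromatin regulator genes (26) had 23.2 ± 5.46 in NELF, 21.2 ± 8.18 in SOSS, 22.5 in SPT5 and 13.1 in INTS9 and INTS11, and of 4 tested limma called 0, with 1 (Brd2) lower in SOSS at an unadjusted p under 0.05, the same share as the background of 25%. A single member held 28.6% to 51.4% of the list's sites in a NELF library. After Brd2, which tops this list, came Arid1b, a subunit gene of SWI/SNF remodellers, with 11.8 ± 7.42 in NELF, 5.10 ± 3.02 in SOSS and 12.2 in SPT5. The genes of Integrator and SOSS subunits themselves (12) were near the level of all zones, at 3.00 ± 0.955 in NELF, 3.10 ± 2.16 in SOSS and 6.52 in SPT5. Ints6 and Ints3 led it with 15 and 6 sites in all.

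Divided by each library's zone density, the list means were 2.95 in NELF and 5.22 in SOSS for RNA binding and splicing. For elongation control they were 2.19 and 3.99, so the SOSS mean stayed higher in both. Libraries overlapped in RNA binding and splicing (1.65 to 3.96 in NELF, 2.63 to 7.01 in SOSS). They did not in elongation control (1.49 to 2.70 and 3.48 to 4.78), where a NELF library held only 4 to 9 sites. The means were 9.42 and 4.88 for actin cytoskeleton, 4.70 and 3.06 for matrix and adhesion and 7.82 and 4.75 for chromatin regulators. SPT5 had 11.7, 6.57 and 4.77 in those 3 lists. Of these, NELF and SOSS libraries overlapped only in matrix and adhesion (3.51 to 7.09 and 2.44 to 3.89). In chromatin regulators a single member held 28.6% to 51.4% of the sites in NELF libraries and 18.2% to 24.1% in SOSS. In actin cytoskeleton a single member held up to 29.7% in a NELF library (NELFB) and a similar share in INIP. Whether the families stay apart in these lists without such a member was not tested. None of these list differences was tested as a list.

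**Figure D5:**
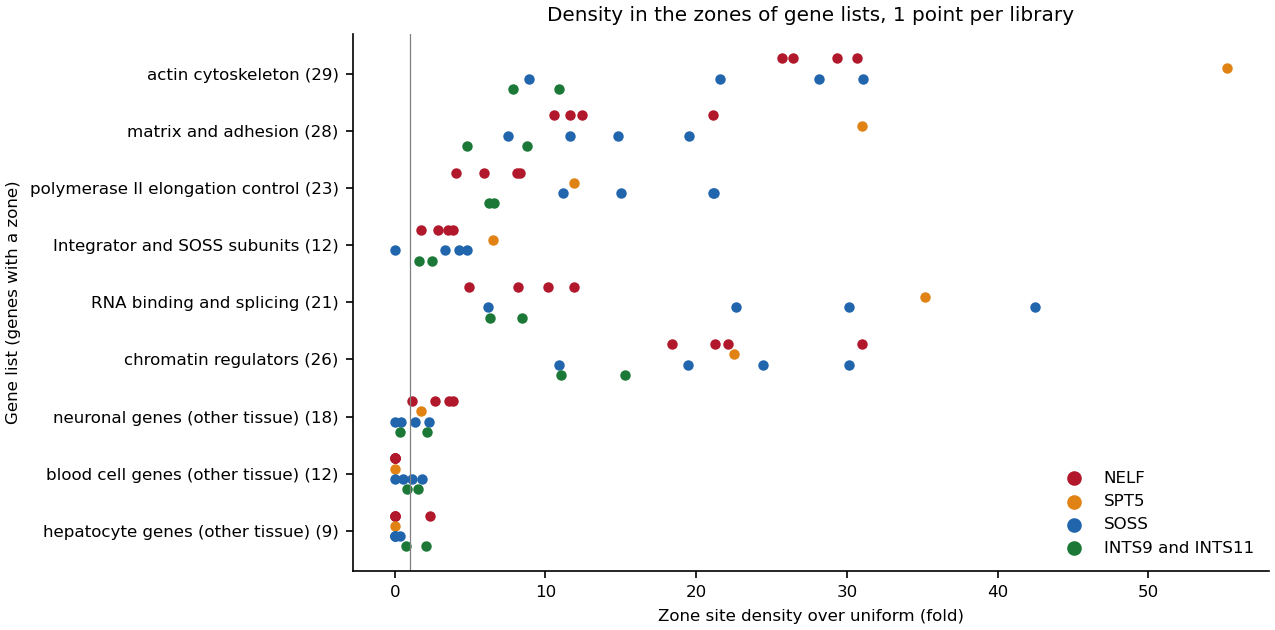
Density in the zones of 9 gene lists as fold over uniform, 1 point per library, coloured by family, with the number of genes with a zone in brackets and a line at uniform density. The SPT5 point lies far right in actin cytoskeleton (55.2), SOSS points lie right of NELF in elongation control, and lists of other tissues lie near or below 4 in every library.

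Lists of other tissues served as a check of the cell type and held few sites. Blood cell genes (12) had 0 sites in all 4 NELF libraries, SPT5 and INIP, which allows a density of up to 1.95 in SPT5 and 8.52 in NELFE, and 0.553 to 1.81 in the other SOSS libraries. Hepatocyte genes (9) held 5 sites in all, 1 of them in NELF, and had 0 in SPT5. Neuronal genes (18) had 2.82 ± 1.22 in NELF, 1.004 ± 1.01 in SOSS and 1.77 in SPT5 from 31 sites, of which 17 lay in Dlg4, a scaffold protein gene, 70.6% of them near another of its starts. Of other members of these lists, Slc17a7, Lck, Cyp2e1 and Cps1 had 1 to 3 sites each. Divided by each library's zone density, the neuronal list had 0.946 in NELF (0.390 to 1.30), 0.215 in SOSS and 0.375 in SPT5. In NELF this list was therefore near the level of all zones, and the check did not set it apart there.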

How the data were processed

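HIV integration sites were analysed in 11 libraries of LEDGF-deficient mouse fibroblasts. Per the file headers, each deposited entry is other than a count or signal: the 0-based genome position of the first base after the viral LTR, with its strand. Junctions were amplified by linker-mediated and nested PCR and sequenced as pairs on GAIIx or HiSeq, per the labels' protocols, and placed on mm9 (per the submitters' processing notes). The aligner is not given in the sources used here. Collapsing repeated positions turned 873534 entries into 831994 sites. PCR without molecular identifiers means that intervals cover counting error only.

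GENCODE annotation for mm9 supplied 22350 protein-coding genes, 13494 of at least 10 kb, and the histone exclusion used 70 histone genes. A site was given to its nearest start. Flanks used the same starts and exclusions. Upstream flanks lay outside protein-coding genes. Families follow the known complexes, and the labels name only the proteins. Members and lists were chosen with earlier results of these data known.

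The 7 measures and 20 bins of 200 bases were compared between NELF and SOSS with two-sided exact permutation tests over 70 splits, Benjamini-Hochberg adjusted within each family of tests. Genes with a mean of at least 5 zone sites per 100000 were compared with limma 3.58.1 (trend and robust) in R 4.3.3 on log2 of zone sites per 100000 plus 1, in 1 fit of 4 groups, passing at an adjusted p of at most 0.05. Other steps used Python 3.11.15, numpy 2.4.6, pandas 2.3.3 and scipy 1.17.1. The gene comparison was tested on simulated counts with known changes in SOSS. Libraries of a family were given a common mean and, beyond counting error, an SD of 0.3 times that mean. Real SOSS libraries could spread more, as at Ptbp1 (15.4 ± 15.9), so the rates below may not hold for such genes. The comparison recovered 90% of 10 genes raised 4-fold and 33.3% of 3 lowered 4-fold. At 2-fold it recovered 20% of 10 raised and 0% of 8 lowered, so smaller changes and decreases were mostly missed. Of 54 unchanged genes 1.85% were called. Named genes were the 12 with the highest mean, the 5 highest of each family, genes that passed, and the 2 highest of each list. Of these, 1 gene is not reported here. Alternatives were the place of SPT5, INTS9 and INTS11, repeated entries, merging within 5 bases, genes of at least 20 kb, other starts, the 50 leading genes left out, 400-base bins, pseudocount, minimum, scaling, voom weights and each library left out. Thinned values are means of 50 random draws.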

Additional observations from a re-analysis of the deposited data

How the results depend on the processing

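NELF and SOSS have the same subunit numbers only by order of naming. No paired analysis was possible because each library is another protein and no label pairs a NELF with a SOSS subunit. Of the checks run on the 7 measures, the bins and the gene counts, 123 stayed on their side of the threshold, or within 1.5 times for a count, and 121 of these kept their direction. The other 2 were of the strand share, which did not pass anywhere and went from -0.297 points to 0.209 without NELFB and 0.306 without INIP. The remaining checks changed: 25 counts moved beyond that limit, 17 measures no longer passed and 4 newly passed. With SPT5 placed beside SOSS, NELF differences fell short: -1.72 (log2) in zone over 0 to 1 kb, -289 bases in mean distance, 0.271 (log2) in zone over 5 to 10 kb and 2.43 percentage points in exon share. With genes of at least 20 kb the downstream over upstream difference passed at -0.567, as it did with other starts of the same gene left out (-0.712), where exon share fell to 0.397 points and no longer passed. Leaving out each library in turn gave -2.16 to -0.917 in zone density, -2.28 to -1.91 (log2) in zone over 0 to 1 kb, -399.8 to -334.4 bases in mean distance, 0.287 to 0.469 (log2) in zone over 5 to 10 kb, -0.629 to -0.307 (log2) in downstream over upstream, 2.69 to 3.52 points in exon share and 0 to 18 passing bins. Counts of genes higher and lower in SOSS, 2 and 4 in the report, were 4 and 10 with a pseudocount of 5, 17 and 4 with a minimum mean of 2 per 100000 (740 genes), 0 and 3 with a minimum of 10 (8 genes tested, and fewer genes could pass), 1 and 16 per 10000 zone sites, 2 and 17 with voom weights, 2 and 5 with all entries, 0 and 2 with INTS9 and INTS11 added to SOSS and 2 and 3 with other starts left out, an alternative chosen after seeing the data. Leaving out single libraries gave 0 to 5 higher and 0 to 10 lower. SPT5 against NELF gave 2 higher with a pseudocount of 5. The causes of these changes were not tested. Among single genes, 3 values changed sign, none of them passing: Rassf1 went from -0.288 to 0.0904 without NELFA and 0.265 without NELFB, and Mknk2 from 0.652 to -0.209 without NELFE. Of the single-gene values 205 stayed on their side of the threshold, 32 no longer passed and 19 newly passed. Depth limits the gene values: 1 site is worth 5.33 per 100000 in NELFE and 4.01 in INIP.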
